A study of Homo sapiens with 10 samples.

Results

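Glycolysis and hypoxia-response genes were examined as a set of 38 genes, listed by symbol, in T47D breast cancer cells after silencing of *TRPS1* or *CHD4*. All 38 were among the 18262 genes present in both deposited count tables, out of 19695 genes in either table. They were divided by role into 17 glycolytic enzymes, 4 genes of glucose entry and flux control, 5 genes of oxygen sensing and 12 other hypoxia targets. T47D is an oestrogen receptor-positive luminal breast cancer line, and TRPS1 is an atypical GATA-family factor that represses transcription. CHD4 is the ATPase of the NuRD chromatin-remodelling complex. RNA-seq covered 6 libraries of rRNA-depleted total RNA, with 2 for cells given control siRNA, 2 for *TRPS1* siRNA and 2 for siRNA against *CHD4*, all from cells collected 72 h after transfection, and a list of 1844 TRPS1 ChIP-seq peaks came from 2 ChIP and 2 input libraries. All groups were the same line in RPMI medium with serum. The oxygen level and the glucose content of the medium are not given in the sources used here, and no group was labelled as hypoxic. The knockdowns were transient and partial. The labels and the RNA interference methods name an siRNA for *CHD4*, whereas the RNA-seq methods name an shRNA. Which of the listed siRNAs was used for each library is not given in the sources used here.

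Glycolysis splits glucose into pyruvate, and lactate dehydrogenase then turns pyruvate into lactate so that the pathway can run on without oxygen. Hypoxia-inducible factors, made of an oxygen-labile alpha subunit (HIF1A or EPAS1) and the stable partner ARNT, bind ACGTG or GCGTG cores near genes for glucose uptake, nearly every glycolytic step, pH control, angiogenesis and mitophagy. The prolyl hydroxylases EGLN1 and EGLN3 mark the alpha subunits for destruction when oxygen is present. HIF protein is set mainly after transcription, so *HIF1A* mRNA is not a readout of HIF activity.

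The bases upstream of the start of 5 members are shown. *LDHA*, *ALDOA* and *BNIP3* were lower past the threshold of the study in both knockdowns, as was *GAPDH*, which is not shown. *CA9* was the member that differed past that threshold between the knockdowns, and *PGK1* is an enzyme with the same core that did not pass it. Each sequence is the 250 bases before a RefSeq start of GRCh38.p14, read in the direction of the gene, and capitals mark ACGTG or GCGTG on either strand. The windows are chr11:18394313-18394562 on the plus strand (*LDHA*), chr16:30064029-30064278 on the plus strand (*ALDOA*, the first of 3 listed starts), chr10:131981924-131982173 on the minus strand (*BNIP3*), chr9:35673678-35673927 on the plus strand (*CA9*) and chrX:78103998-78104247 on the plus strand (*PGK1*). All 5 windows lie outside the record of their own gene.
LDHA: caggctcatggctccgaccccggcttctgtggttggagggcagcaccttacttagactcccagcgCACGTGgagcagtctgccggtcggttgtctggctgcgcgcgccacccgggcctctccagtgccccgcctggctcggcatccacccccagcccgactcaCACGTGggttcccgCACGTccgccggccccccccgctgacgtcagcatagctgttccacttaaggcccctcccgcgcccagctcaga
ALDOA: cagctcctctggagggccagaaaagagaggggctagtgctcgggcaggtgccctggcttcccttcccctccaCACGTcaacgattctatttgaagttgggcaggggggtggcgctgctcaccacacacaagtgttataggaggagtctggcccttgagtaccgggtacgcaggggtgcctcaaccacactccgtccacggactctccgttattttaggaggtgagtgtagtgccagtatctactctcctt
BNIP3: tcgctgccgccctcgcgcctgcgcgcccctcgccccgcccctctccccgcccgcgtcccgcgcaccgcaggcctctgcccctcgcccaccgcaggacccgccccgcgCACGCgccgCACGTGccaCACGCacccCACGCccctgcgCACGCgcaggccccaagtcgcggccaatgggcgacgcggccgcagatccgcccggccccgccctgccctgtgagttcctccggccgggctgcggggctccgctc
CA9: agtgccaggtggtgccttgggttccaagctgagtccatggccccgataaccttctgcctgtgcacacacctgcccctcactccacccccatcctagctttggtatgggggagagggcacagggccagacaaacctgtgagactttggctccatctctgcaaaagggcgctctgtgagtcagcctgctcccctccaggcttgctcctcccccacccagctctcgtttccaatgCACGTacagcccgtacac
PGK1: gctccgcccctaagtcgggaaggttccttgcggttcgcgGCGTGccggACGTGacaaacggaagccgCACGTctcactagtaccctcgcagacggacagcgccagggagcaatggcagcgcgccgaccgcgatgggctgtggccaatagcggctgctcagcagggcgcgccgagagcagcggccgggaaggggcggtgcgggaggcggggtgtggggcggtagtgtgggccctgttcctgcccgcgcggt

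ACGTG stood in the 250 bases before at least 1 listed start for 20 of the 35 members with an entry (57.1%), and for 11 of the 17 glycolytic enzymes (64.7%). Among all tested genes with an entry it was 28.6%. Members have up to 7 listed starts, and at the first listed start alone the shares were 42.9% of members and 23.3% of tested genes. Counted per promoter, it stood in 41.0% of the members' 61 and 18.5% of all 35116 listed promoters. *LDHA*, *BNIP3*, *GAPDH*, *HK2*, *ALDOA*, *ALDOC*, *PFKFB3* and *ANKRD37* hold it inside CACGTG before at least 1 listed start. CACGTG reads the same on both strands and so counts once for each strand. With GCGTG added, the shares were 80.0% of members and 65.0% of tested genes. Members' windows were also richer in G and C than all listed promoters (64.7% against 57.2% of bases), and the part of base composition in these shares was not tested. A GATA core was searched on either strand as AGATAA. The variants AGATAG and, beginning with T, TGATAA and also TGATAG were counted with it. It stood before 20.0% of members and 17.7% of tested genes. *VEGFA*, *BNIP3L* and *NDRG1* have no entry. A match describes the letters only and is not a binding site.

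Before the results, 2 features of the libraries bear on every comparison with control. Totals ran from 10333138 to 14668358 counts per library. Control replicate 1 stood apart: its log2 expression correlated at r = 0.858 to 0.880 with the other 5 libraries, control replicate 2 included, whereas the other pairs gave 0.942 to 0.976. This difference followed gene span, the distance from the start to the end of the RefSeq record. In the fifth of tested genes with the shortest spans (up to 9.66 kb) the median of control replicate 1 minus control replicate 2 was 0.52 on the log2 scale, and in the fifth with the longest spans it was -0.44. Levels below are read counts scaled to the library total (CPM) and with TMM factors over all 6 libraries. For several members given in full, changes from control are also set against each control library alone. *TRPS1* mRNA was 1448 and 2274 CPM in the control libraries and 1169 and 723 CPM after *TRPS1* siRNA, which gave a log2 fold change of -0.97 (adjusted p = 0.659). *CHD4* mRNA was 301 and 286 CPM in the controls and 96.0 and 54.4 CPM after *CHD4* siRNA (log2 fold change -1.96, adjusted p = 0.784). All 9 luminal markers looked up were counted in every library. Their summed CPM was 13617 to 16123 in the controls, 6829 to 7311 after *TRPS1* siRNA and 6790 to 9438 after *CHD4* siRNA. These sums do not show that each marker fell. *KRT8*, *KRT18*, *KRT19* and *ESR1* were below both controls in all 4 knockdown libraries. *FOXA1*, *PGR*, *GATA3*, *CDH1* and *TRPS1* overlapped the controls with *TRPS1* siRNA, *CHD4* siRNA or both. Of 8 markers of other cell types, *KRT5*, *COL3A1*, *PECAM1*, *PTPRC* and *CD3E* were not in both tables, and the summed CPM of the other 3 was 60.8 to 159. *TRPS1* is itself on the luminal list. *KRT8*, a luminal keratin, was 5208 and 3343 CPM in the controls and 1077 to 1235 CPM in the 4 knockdown libraries, so it moved with the enzymes below, and its part in their values was not tested. In bulk RNA, fewer cells of a type and less RNA per cell cannot be told apart. Nothing in the labels says that the 2 libraries of a group came from separate cultures, so p-values measure only the spread between these libraries.

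**Figure D1:**
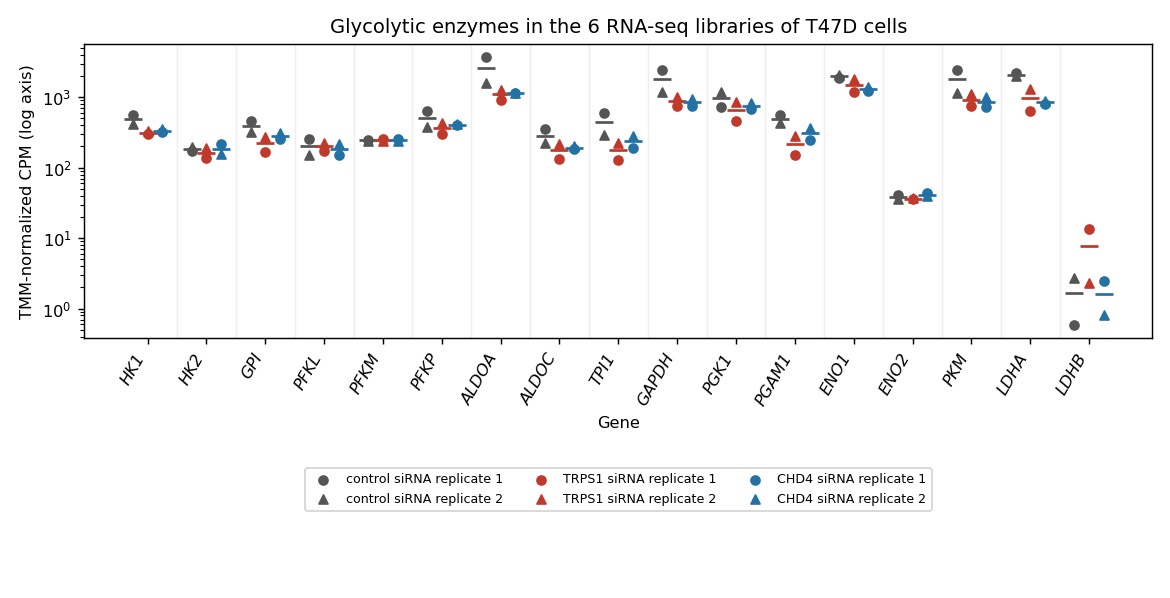
TMM-normalized CPM (log axis) of the 17 glycolytic enzymes in each of the 6 RNA-seq libraries. Circles are replicate 1, triangles replicate 2 and short bars the mean of 2 libraries. *ALDOA*, *TPI1*, *GAPDH* and *PKM* are over 2-fold higher in control replicate 1 than in control replicate 2, whereas *LDHA* is within 1.11-fold. *LDHB*, at very low counts, is 4.63-fold higher in control replicate 2.

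The first comparison asked which of these genes differ once *TRPS1* is silenced. Glycolytic enzymes were mostly lower. Of 17, 15 had a log2 fold change below 0, 10 had both *TRPS1* siRNA libraries below both control libraries, and 5 were lower past the threshold of the study (fold change over 2 and unadjusted p under 0.05): *ALDOA*, *TPI1*, *GAPDH*, *PGAM1* and *LDHA*. No enzyme was higher past it. The median log2 fold change of the enzymes was -0.65, against -0.02 over all 12921 genes tested. It was -0.21 over the fifth of tested genes with the shortest spans, which held 6 of the enzymes, and 0.20 over the fifth with the longest. The part of gene span in the enzymes' median was not tested. Over all 37 members tested, 6 were lower and 0 higher past the threshold, where the background was 3.17% of genes lower and 2.70% higher. Groups did not overlap for 17 members on the lower side (background 21.6%) and for 0 of the tested members on the higher side (22.5%). An unadjusted p under 0.05 was reached by 7 members (background 6.98%). After Benjamini-Hochberg adjustment, edgeR's quasi-likelihood test called no member, with adjusted p-values from 0.659 upwards, and its background was 0.0%. Likewise, the likelihood ratio test (0.263% of genes) and DESeq2 (0.302%) called none of the members. With 2 libraries against 2, a two-sided exact permutation test of 1 gene cannot give a p below 0.333.

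*LDHA*, the A subunit of lactate dehydrogenase (chr11:18394563-18408425), was 2180 and 1971 CPM in the controls, 635 and 1297 CPM after *TRPS1* siRNA and 801 and 892 CPM after *CHD4* siRNA. All 4 knockdown libraries lay below both controls, and the controls lay close together. Its log2 fold change was -1.10 ± 0.41 (SE) with *TRPS1* siRNA, and it was -1.26 against control replicate 1 alone and -1.12 against control replicate 2 alone. Leaving out *TRPS1* siRNA replicate 1 gave -0.66, and leaving out replicate 2 gave -1.69. *PGAM1*, phosphoglycerate mutase (chr10:97426191-97433444), was 551 and 425 CPM in the controls, 151 and 279 CPM after *TRPS1* siRNA and 251 and 364 CPM after *CHD4* siRNA. It too was below both controls in all knockdown libraries. The log2 fold change with *TRPS1* siRNA was -1.17 ± 0.41 (SE), -1.42 against control replicate 1 alone and -1.05 against control replicate 2 alone. *LDHA* and *PGAM1* were the members that lay over 2-fold below each control library on its own after *TRPS1* siRNA, as the mean of the 2 *TRPS1* siRNA libraries. For both genes *TRPS1* siRNA replicate 1 was the lower library. Replicate 2 by itself, at 1297 CPM (*LDHA*) and 279 CPM (*PGAM1*), was under 2-fold below each control library.

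The other 3 enzymes past the threshold leaned on control replicate 1. *ALDOA*, aldolase A, was 3677 CPM in control replicate 1 and 1590 CPM in control replicate 2, against 922 and 1268 CPM after *TRPS1* siRNA and 1153 and 1140 CPM after *CHD4* siRNA. The knockdown libraries were below both controls, but the controls differed from each other by 2.31-fold, more than control replicate 2 differed from either knockdown mean. The log2 change of *ALDOA* with *TRPS1* siRNA was -1.26 ± 0.47 (SE), made up of -1.77 against control replicate 1 and -0.56 against control replicate 2. *TPI1*, triosephosphate isomerase, was 589 and 289 CPM in the controls, 129 and 223 CPM after *TRPS1* siRNA and 190 and 282 CPM after *CHD4* siRNA, the last of which nearly met control replicate 2. It had log2 fold changes of -1.31 ± 0.48 (SE) against both controls, -1.79 against control replicate 1 and -0.77 against control replicate 2. *GAPDH*, glyceraldehyde-3-phosphate dehydrogenase, was 2441 and 1203 CPM in the controls, 754 and 1007 CPM after *TRPS1* siRNA and 758 and 958 CPM after *CHD4* siRNA. Here again control replicate 1 was the high library, 2.03-fold above control replicate 2. The log2 fold change of *GAPDH* was -1.04 ± 0.43 (SE), -1.49 against control replicate 1 and -0.47 against control replicate 2. These 3 genes span 6.14, 3.53 and 3.86 kb and so fall in the fifth of shortest spans, which held 6 of the 17 enzymes.

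The remaining 12 enzymes did not pass the threshold. *PGK1*, phosphoglycerate kinase, was 730 and 1200 CPM in the controls, 461 and 856 CPM after *TRPS1* siRNA and 676 and 836 CPM after *CHD4* siRNA, with groups that overlapped. It was higher in control replicate 2 than in control replicate 1, and its log2 fold change with *TRPS1* siRNA was -0.55 ± 0.43 (SE). Against control replicate 1 and 2 alone it was -0.22 and -0.93. *HK2*, the hypoxia-inducible hexokinase, was 171 and 198 CPM in the controls, 139 and 189 CPM after *TRPS1* siRNA and 214 and 157 CPM after *CHD4* siRNA. Its groups overlapped in every comparison (log2 fold change -0.16 ± 0.34, SE, with *TRPS1* siRNA). *PKM*, pyruvate kinase, had -0.94 ± 0.45 (SE), while *GPI* and *HK1* had -0.83 and -0.65 on the same log2 scale. *ENO1*, *ENO2*, *ALDOC*, *PFKL*, *PFKM* and *PFKP* ranged from -0.68 (*ALDOC*) to 0.03 (*PFKM*). *LDHB*, the heart-type subunit of lactate dehydrogenase, went the other way through a single library. It had 8 and 36 counts in the controls, 139 and 35 counts after *TRPS1* siRNA and 26 and 10 counts after *CHD4* siRNA. *TRPS1* siRNA replicate 1 alone was high, and the log2 fold change of 2.23 ± 1.07 (SE) dropped to 0.50 without it. *VIM*, a mesenchymal marker, had 180 counts in that library and 12 to 38 counts in the other 5, and its part in the *LDHB* value was not tested.

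Counting may split reads between a gene and its near-identical copies. RefSeq names 65 numbered pseudogenes of *GAPDH*, 46 of *BNIP3*, 13 of *PGAM1* and 6 of *LDHA*, and 10 of the 17 enzymes have at least 1. The values of these genes are uncertain to that extent. Of all members, 18 overlap another gene, and whether counting used strand is not given in the sources used here.

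**Figure D2:**
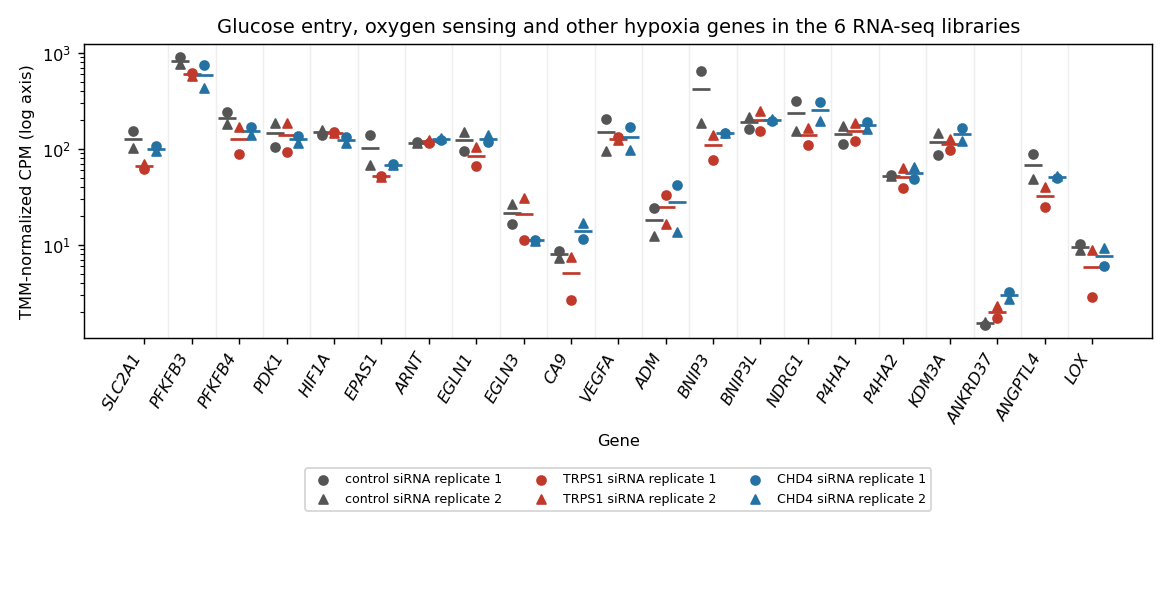
TMM-normalized CPM (log axis) of the 21 members that are not glycolytic enzymes, in each of the 6 libraries (circles replicate 1, triangles replicate 2, short bars the mean). *BNIP3* is highest in control replicate 1 (651 CPM), *SLC2A1* is lowest in the *TRPS1* siRNA libraries, and *HIF1A* and *ARNT* differ little.

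Outside the enzymes, *TRPS1* siRNA gave a median log2 fold change of -0.35 over the 20 members tested, and 1 member, *BNIP3*, was lower past the threshold. *ANKRD37*, an ankyrin repeat protein induced by HIF, was below the expression filter in this comparison, with 18 to 35 counts per library over all 6. All 4 genes of glucose entry and flux control had a log2 fold change below 0. *SLC2A1*, the glucose transporter GLUT1, was 156 and 101 CPM in the controls, 61.3 and 70.4 CPM after *TRPS1* siRNA and 106 and 94.2 CPM after *CHD4* siRNA. Both *TRPS1* siRNA libraries were the lowest of the 6. Its log2 fold change was -0.96 ± 0.37 (SE), just under the 2-fold limit, and it was -1.24 and -0.62 against control replicate 1 and 2 alone. *PFKFB3*, which makes the activator of phosphofructokinase, was 901 and 768 CPM in the controls, 621 and 577 CPM after *TRPS1* siRNA and 745 and 429 CPM after *CHD4* siRNA. All knockdown libraries lay below both controls, with a log2 fold change of -0.47 ± 0.30 (SE) for *TRPS1* siRNA. *PFKFB4*, its paralog, was 242 and 181 CPM in the controls, 89.5 and 167 CPM after *TRPS1* siRNA and 168 and 141 CPM after *CHD4* siRNA, likewise with no overlap (log2 fold change -0.71 ± 0.42, SE, with *TRPS1* siRNA). *PDK1*, the kinase that shuts pyruvate dehydrogenase, was near 0 at -0.06.

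The oxygen-sensing genes showed no common direction. *HIF1A* was 141 and 159 CPM in the controls, 151 and 145 CPM after *TRPS1* siRNA and 133 and 116 CPM after *CHD4* siRNA. The *TRPS1* siRNA libraries lay between the controls, with a log2 fold change of -0.02 ± 0.31 (SE). *EPAS1*, which encodes HIF2A, was 138 and 67.8 CPM in the controls, 52.3 and 51.4 CPM after *TRPS1* siRNA and 69.7 and 68.01 CPM after *CHD4* siRNA. Control replicate 1 stood above the other 5 libraries, and the log2 fold change of -0.99 ± 0.43 (SE) with *TRPS1* siRNA became -0.39 against control replicate 2 alone. *ARNT*, *EGLN1* and *EGLN3* had 0.06, -0.52 and -0.02.

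Among the other targets, *BNIP3*, a mitophagy receptor of the outer mitochondrial membrane, was 651 and 185 CPM in the controls, 76.7 and 141 CPM after *TRPS1* siRNA and 145 and 147 CPM after *CHD4* siRNA. Every knockdown library was below both controls, and the controls were 3.52-fold apart. The log2 fold change of *BNIP3* was -1.93 ± 0.65 (SE) with *TRPS1* siRNA, -2.64 against control replicate 1 and -0.83 against control replicate 2. *CA9*, the carbonic anhydrase that acidifies the outside of hypoxic cells, had 117 and 97 counts in the controls, 28 and 114 counts after *TRPS1* siRNA and 122 and 210 counts after *CHD4* siRNA. Only *TRPS1* siRNA replicate 1 was low, so that the log2 fold change was -0.63 ± 0.63 (SE). *VEGFA*, the angiogenic growth factor, was 208 and 94.3 CPM in the controls, 133 and 124 CPM after *TRPS1* siRNA and 168 and 98.7 CPM after *CHD4* siRNA, with both knockdowns inside the range of the controls. Its log2 change was -0.70 and 0.44 against control replicate 1 and 2 alone with *TRPS1* siRNA, and -0.69 and 0.45 with *CHD4* siRNA. *NDRG1*, a stress-induced differentiation gene, was 320 and 155 CPM in the controls, 110 and 167 CPM after *TRPS1* siRNA and 308 and 198 CPM after *CHD4* siRNA. Its groups overlapped against control in both knockdowns. The log2 change of *NDRG1* was -1.24 and -0.19 against control replicate 1 and 2 alone with *TRPS1* siRNA, and -0.37 and 0.67 with *CHD4* siRNA. *ANGPTL4* (-1.07) was below both controls. *LOX*, lysyl oxidase, had -0.70 through *TRPS1* siRNA replicate 1, at 2.88 CPM, whereas replicate 2, at 8.88 CPM, was level with control replicate 2, at 8.92 CPM. By contrast, *ADM*, *BNIP3L*, *P4HA1*, *P4HA2* and *KDM3A* ranged from -0.05 (*KDM3A*) to 0.46 (*ADM*) and overlapped with the controls.

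**Figure D3:**
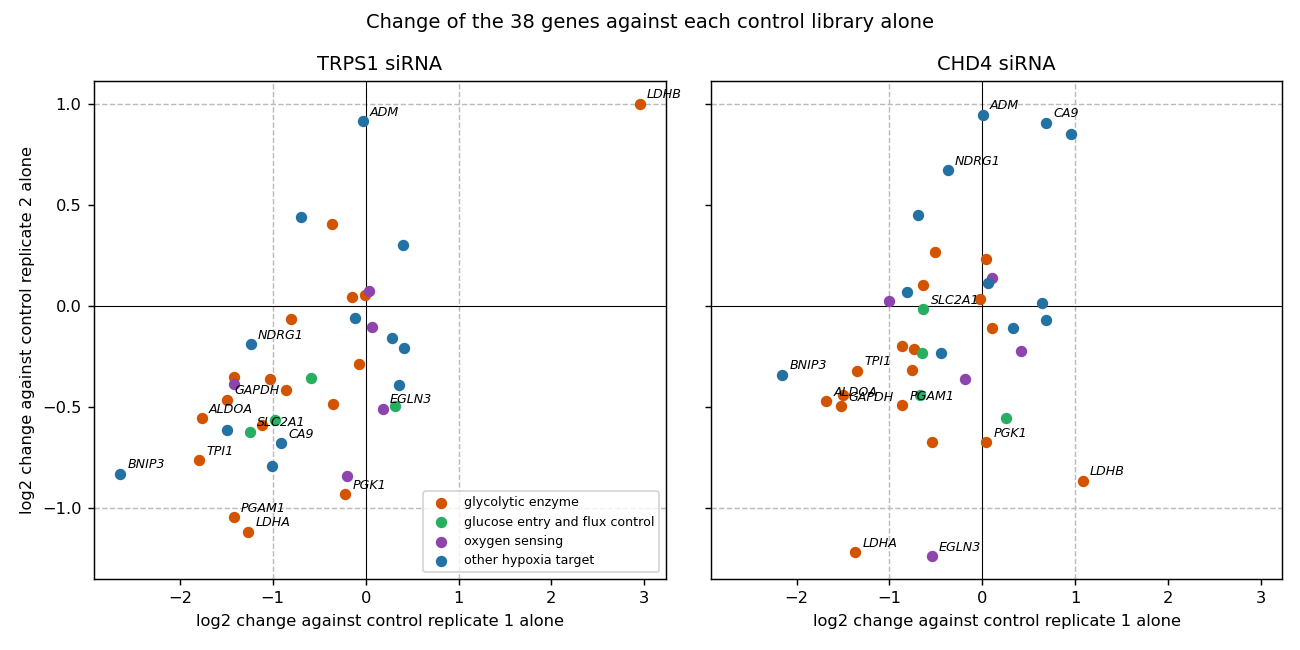
Log2 change of the 38 genes after *TRPS1* siRNA (left) and *CHD4* siRNA (right), mean of 2 libraries, against control replicate 1 alone (x axis) and control replicate 2 alone (y axis). Dashed lines mark 2-fold; *LDHA* and *PGAM1* lie past both lines on the lower side on the left and *LDHA* alone on the right, whereas *BNIP3* and *ALDOA* lie past the line for control replicate 1 only.

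Taken against 1 control library at a time, the members gave very different counts. After *TRPS1* siRNA, 14 members were over 2-fold below control replicate 1, where the background was 15.0% of genes, and 2 were over 2-fold below control replicate 2, where it was 2.91%. On the higher side, only *LDHB* passed 2-fold, against either control library (background 19.0% and 5.46%). The enzymes' median log2 change was -0.85 against control replicate 1 and -0.42 against control replicate 2, so its sign was kept, and 13 of the 17 lay below control replicate 2. Between the control libraries themselves the enzymes had a median of 0.44 (control replicate 1 minus 2), and 13 of 17 were higher in control replicate 1, against a median of -0.03 over all genes tested. The 2 *TRPS1* siRNA libraries also differed: 15 of the 17 enzymes were lower in replicate 1 than in replicate 2, with a median of -0.55. *TRPS1* mRNA itself was higher in replicate 1 (1169 CPM) than in replicate 2 (723 CPM). How the enzymes' difference relates to the degree of silencing was not tested. With *TRPS1* siRNA replicate 1 left out, no member was lower past the threshold, and with control replicate 1 left out, 1 member was.

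**Figure D4:**
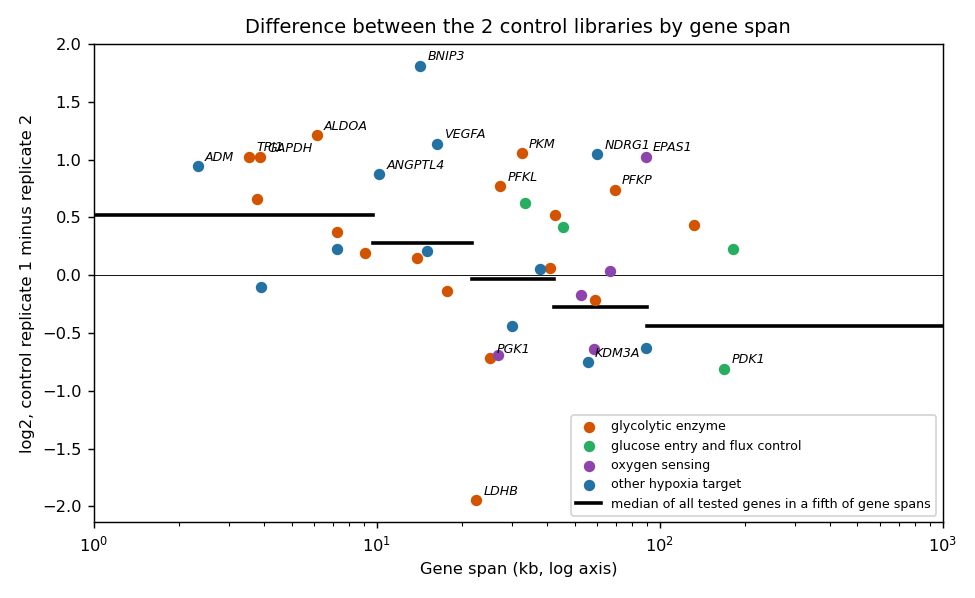
Log2 difference between the 2 control libraries (y axis, replicate 1 minus replicate 2) against gene span in kb (log axis) for the 38 genes, coloured by role; black bars are the medians of all tested genes in groups of rising gene span, clipped at the edges of the plot. The bars fall from 0.52 for the shortest spans to -0.44 for the longest. *BNIP3*, *ALDOA*, *VEGFA*, *PKM*, *EPAS1*, *NDRG1*, *TPI1* and *GAPDH* are among the members above the bar for their span.

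The same question was then asked of *CHD4*, and the comparison uses the same 2 control libraries as the one above. Of 17 enzymes, 14 had a log2 fold change below 0, 10 had both *CHD4* siRNA libraries below both controls, and *ALDOA*, *GAPDH* and *LDHA* were lower past the threshold. The enzymes' median log2 fold change was -0.54, whereas the 21 other members had -0.17 and all 12918 genes tested -0.02. Fitted without control replicate 1 the enzymes' median was -0.30, and without control replicate 2 it was -0.73. Tested genes in the fifth of shortest spans had a median of -0.20, and those in the fifth of longest spans 0.18. Over the 38 members, 4 were lower past the threshold (background 2.85%) and 0 higher (2.60%). Groups did not overlap for 15 members on the lower side (background 20.0%) and 3 on the higher side (19.8%). An unadjusted p under 0.05 was reached by 4 members (5.95% of genes). No member passed an adjusted p under 0.05 in the quasi-likelihood test (smallest 0.792, 0.0% of genes), the likelihood ratio test (0.449%) or DESeq2 (0.387%).

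*LDHA* had, with *CHD4* siRNA, a log2 fold change of -1.29 ± 0.34 (SE, adjusted p = 0.792). It was -1.37 against control replicate 1 alone and -1.22 against control replicate 2 alone. No other member was over 2-fold lower than each control library by itself. *ALDOA* had a log2 fold change of -1.19 ± 0.45 (SE), with -1.68 and -0.47 against control replicate 1 and 2 alone. For *GAPDH* these were -1.08 ± 0.43 (SE), -1.52 and -0.50. *BNIP3* gave -1.51 ± 0.58 (SE), of which -2.15 stood against control replicate 1 and -0.34 against control replicate 2. Of the 4 calls, *ALDOA*, *GAPDH* and *BNIP3* had less than a 2-fold change from control replicate 2.

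Members not past the threshold with *CHD4* siRNA included 2 that passed it with *TRPS1* siRNA. *PGAM1* had -0.66 ± 0.38 (SE) and *TPI1* had -0.89 ± 0.45 (SE) on the log2 scale. *SLC2A1* had -0.35 ± 0.39 (SE), with *CHD4* siRNA libraries that overlapped the controls. *PGK1* had -0.35 and *HK2* 0.02. *PFKFB3* and *PFKFB4* had -0.50 and -0.45 and lay below both controls. *EGLN3*, the prolyl hydroxylase that HIF itself induces, was the only member besides *LDHA* over 2-fold below control replicate 2 (log2 -1.24, with -0.55 against control replicate 1). *HIF1A* had -0.27 ± 0.35 (SE). The 12 other hypoxia targets had a median of 0.10, and *CA9* and *ANKRD37* stood above both controls with 0.84 ± 0.48 (SE) and 0.98 ± 0.71 (SE). *ANKRD37* was 1.47 and 1.59 CPM in the controls and 3.27 and 2.73 CPM after *CHD4* siRNA. It passed the filter of 2 CPM only through the *CHD4* siRNA libraries. Its higher value and its place among the non-overlapping members therefore come partly from that filter. Against control replicate 1 alone, 7 members were over 2-fold lower (background 14.4%) and 1, *LDHB*, higher (17.8%). Against control replicate 2 alone, 2 were lower (3.13%) and 0 higher (5.99%). Without control replicate 1, 2 members were lower past the threshold, and without either *CHD4* siRNA library none was.

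**Figure D5:**
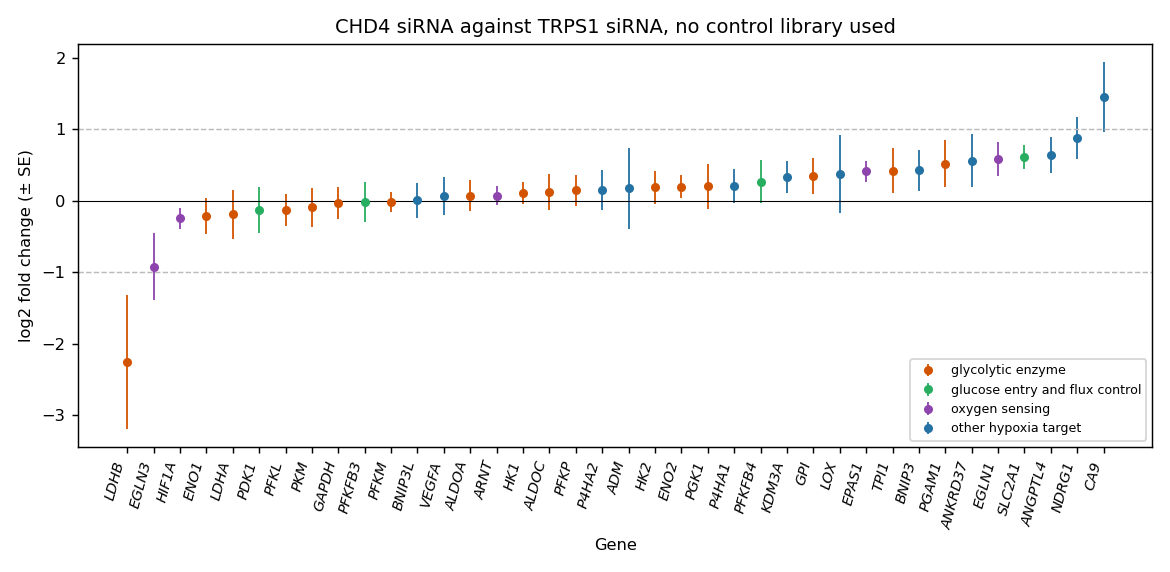
Log2 fold change (± SE from the edgeR fit) of *CHD4* siRNA against *TRPS1* siRNA for the 38 genes, 2 libraries against 2, ordered by size and coloured by role. *CA9* is highest at 1.45; the enzymes sit around 0 except *LDHB*, whose value comes from *TRPS1* siRNA replicate 1.

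The knockdowns were also compared with each other, which uses neither control library. The enzymes differed little here: their median log2 fold change (*CHD4* siRNA against *TRPS1* siRNA) was 0.11, no enzyme reached an unadjusted p under 0.05, and for 16 of 17 the groups overlapped. *LDHA* had -0.19 ± 0.34 (SE), *GAPDH* -0.03 ± 0.22 (SE) and *PGAM1* 0.52 ± 0.33 (SE). A p that misses the threshold does not show that the knockdowns act alike. The other members had a median of 0.27, and all 12 other hypoxia targets had a log2 fold change above 0. Without *TRPS1* siRNA replicate 1 these medians were -0.15 for the enzymes and 0.051 for the other members. The other members' median was 0.57 without *TRPS1* siRNA replicate 2 and 0.13 and 0.41 without *CHD4* siRNA replicate 1 and 2. *CA9* was the 1 member higher past the threshold (background 2.12%), at 1.45 ± 0.49 (SE, adjusted p = 0.252). Both *CHD4* siRNA libraries were above both *TRPS1* siRNA libraries, but 28 counts in *TRPS1* siRNA replicate 1 set much of the distance, and the value was 0.91, under 2-fold, without that library. No member was lower past the threshold (1.56%). In all, 6 members reached an unadjusted p under 0.05 (background 15.4%), all of them higher with *CHD4* siRNA, and besides *CA9* their changes were under 2-fold. *SLC2A1* had 0.61 ± 0.16 (SE, adjusted p = 0.180) and *NDRG1* 0.87 ± 0.29 (SE, adjusted p = 0.251). *EPAS1* had 0.42 ± 0.15 (SE, adjusted p = 0.266), *ANGPTL4* 0.64 ± 0.26 (SE, adjusted p = 0.312) and *EGLN1* 0.59 ± 0.24 (SE, adjusted p = 0.324). Groups did not overlap for 9 members on the higher side (background 22.8%) and for 1, *HIF1A*, on the lower side (24.1%). After adjustment no member was called by the quasi-likelihood test (0.0% of genes), the likelihood ratio test (4.34%) or DESeq2 (3.47%).

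TRPS1 ChIP-seq peaks, which carry no replicate error in the deposited list, were then set against the members' starts. Of 35 members with a listed start, 3 had a peak within 5 kb of one, the limit the study uses for proximal peaks, against 4.67% of 9824 tested genes. *KDM3A*, a histone H3K9 demethylase induced by HIF, had a 283-bp peak at chr2:86440912-86441194 (hg38), 177 bp from its nearest listed start. The log2 fold change of *KDM3A* with *TRPS1* siRNA was -0.05 ± 0.39 (SE). *PGAM1* had a 292-bp peak at chr10:97425750-97426041, which lies 1777 bp from its listed start and 150 bp outside the gene record. *PFKM*, the muscle phosphofructokinase, had a 247-bp peak at chr12:48119165-48119411, 3236 bp from a listed start and inside the gene, and a log2 fold change of 0.03. Peaks overlapped the record of 4 of the 38 genes (*KDM3A*, *PFKM*, *HIF1A* and *PFKFB3*), against 5.64% of tested genes. *PGAM1* was the 1 member lower past the threshold that had a peak within 5 kb, and *LDHA*, *ALDOA*, *TPI1*, *GAPDH* and *BNIP3* had none. The counts are near the background, and the peak list holds no height or q value.

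Other genes of the same pathways were looked up in 2 lists. Of 34 tested genes of other glycolysis and glucose use, 2 were higher and 1 lower past the threshold with *TRPS1* siRNA, where the background was 2.70% and 3.17% of genes. These counts are near the background, and no gene of the list named here had an adjusted p under 0.05 in edgeR's quasi-likelihood test, which called 0.0% of all genes. DESeq2 called 1 gene of the list with *TRPS1* siRNA (0.302% of all genes), and the likelihood ratio test called 1 with *CHD4* siRNA (0.449%). *TALDO1*, transaldolase of the pentose phosphate pathway, was 155 and 106 CPM in the controls, 40.5 and 45.3 CPM after *TRPS1* siRNA and 59.0 and 80.4 CPM after *CHD4* siRNA. It was well below both controls after *TRPS1* siRNA, with log2 -1.60 ± 0.36 (SE) and -1.86 and -1.31 against the control libraries singly. *SLC2A3*, the high-affinity glucose transporter GLUT3, was higher, at 0.734 and 0.983 CPM in the controls, 3.27 and 3.09 CPM after *TRPS1* siRNA and 11.97 and 4.50 CPM after *CHD4* siRNA. Its log2 fold changes were 1.88 ± 0.67 (SE) and 3.25 ± 0.78 (SE), both from very low levels in the controls. In both comparisons with control it passed the filter of 2 CPM only through the knockdown libraries. It could therefore be called only as higher, and its place in the counts above rests partly on that filter. *PDP1*, which reactivates pyruvate dehydrogenase, had 1.04 with *TRPS1* siRNA.

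Of 40 tested genes of the other HIF pathway list, 1 was higher and 3 lower with *TRPS1* siRNA, against the same background. *CA12*, another membrane carbonic anhydrase, was 734 and 578 CPM in the controls and 325 and 311 CPM after *TRPS1* siRNA (log2 -1.04 ± 0.32, SE). *HILPDA*, a lipid droplet protein, was 324 and 208 CPM in the controls and 110 and 119 CPM after *TRPS1* siRNA (log2 -1.21 ± 0.36, SE). *CITED2*, which competes with HIF for its coactivators, had -1.36 and control libraries of 305 and 140 CPM. Against control replicate 2 alone, *CA12*, *HILPDA* and *CITED2* were under 2-fold lower (log2 -0.86, -0.86 and -0.70). *PPP1R3C*, a glycogen-targeting phosphatase subunit, was higher in both knockdowns, at 2.06 ± 0.50 (SE) with *TRPS1* siRNA and 1.84 ± 0.54 (SE) with *CHD4* siRNA. With *CHD4* siRNA, 2 of 41 tested genes of this list were higher and 1 lower, near the background of 2.60% and 2.85%, and *STC2*, stanniocalcin 2, was the lower one (-1.11 ± 0.46, SE). *TFRC*, the transferrin receptor, was 1355 and 3719 CPM in the controls, 1349 and 1394 CPM after *TRPS1* siRNA and 3378 and 2962 CPM after *CHD4* siRNA. It was higher with *CHD4* siRNA than with *TRPS1* siRNA by 1.22 ± 0.20 log2 units (SE). In edgeR's quasi-likelihood test no gene of this list had an adjusted p under 0.05 in any comparison (0.0% of all genes). The likelihood ratio test and DESeq2 called none of the list against control. Between the knockdowns they called 2 and 1 (4.34% and 3.47% of all genes). The medians of the lists were -0.24 and -0.09 with *TRPS1* siRNA and -0.21 and -0.12 with *CHD4* siRNA, closer to that of all genes than the enzymes' medians.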

How the data were processed

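Total RNA depleted of rRNA (6 T47D libraries) and TRPS1-bound chromatin were sequenced. According to the methods and the submitters' notes, the authors used STAR for alignment and HTSeq 0.9.0 for gene counting. The authors deposited these counts without normalization, in 1 table per knockdown with the same control libraries in both. ChIP-seq reads were aligned with BWA 0.7.12-r1039, and the deposited peak positions (hg38) come from MACS2 2.1.1. CASAVA 1.8 is also named. The annotation is not given in the sources used here.

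The 38 members, their roles and the pathway lists were chosen with earlier results of these data known. Samples were grouped by their labels. A comparison kept genes above 2 CPM in 2 or more of its 4 libraries, which were tested in edgeR 4.0.16 (R 4.3.3) with the quasi-likelihood test after TMM scaling, and p-values were Benjamini-Hochberg adjusted over all genes. The threshold of the study is a fold change over 2 with an unadjusted p under 0.05. Changes against 1 control library are differences of mean log2 CPM (prior count 2) over the same TMM factors, and have no test. Each SE was taken from the log2 fold change and its F statistic (absolute change over root F). Values in every library were given for 17 members: those past the threshold in any comparison, those at least 2-fold from each control library alone, and *HIF1A*, *EPAS1*, *CA9*, *VEGFA*, *SLC2A1*, *HK2*, *PFKFB3*, *PFKFB4*, *GAPDH*, *LDHA*, *PGK1* and *NDRG1*. Genes of the pathway lists were named only from those past the threshold. Of these, 1 gene is not reported here. Gene records, starts and upstream sequences are from RefSeq (GRCh38.p14), joined by symbol, and peaks were measured to the nearest listed start. DESeq2 1.42.0, the likelihood ratio test, other scalings and filters, a replicate block, a joint fit and fits without each library were run as alternatives. Figures were drawn with matplotlib 3.10.9.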

Additional observations from a re-analysis of the deposited data

How the results depend on the processing

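At 2 libraries a group, few values were firm. With *TRPS1* siRNA, the 6 members lower past the threshold became 3 when libraries were scaled by their totals alone, and 0 to 12 without 1 library (1 without control replicate 1, 12 without control replicate 2, 0 without *TRPS1* siRNA replicate 1). The 0 higher became 1 by the likelihood ratio test, by DESeq2 and with no filter on low counts, and 0 to 1 without 1 library. Median log2 fold changes without 1 library were -1.05 to -0.36 for enzymes and -0.74 to -0.10 for other members, largest in size without *TRPS1* siRNA replicate 2. With *CHD4* siRNA, the 4 lower became 0 to 6 without 1 library (0 without either *CHD4* siRNA library, 2 without control replicate 1), and the median of the other members was -0.051 by totals alone and -0.32 to 0.0052 without 1 library. Between the knockdowns, the 1 higher became 0 to 5 without 1 library (0 without *TRPS1* siRNA replicate 1, 5 without its replicate 2). The 0 lower became 1 by the likelihood ratio test, by DESeq2 and with no filter, and 0 to 1 without 1 library. The enzymes' median was -0.15 to 0.34, lowest without *TRPS1* siRNA replicate 1. With a lone library in a group, its spread is assumed to be that of the other group. Without control replicate 2, adjusted p-values called 18 members with *TRPS1* siRNA and 8 with *CHD4* siRNA, where 47.4% and 30.3% of all genes were called. Scaling by totals alone moved the median of all genes by 0.13 (log2) in both comparisons with control, and no filter moved it by 0.15 and 0.16. The medians with no filter are over a wider set, of 18984 and 18973 genes against 12921 and 12918, so they are not shifts of the same genes. The cause of these changes was not tested, apart from the fewer libraries.

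Replicate numbers are not stated to pair the libraries. Deviations of same-numbered libraries correlated at 0.615 between the knockdowns, and at 0.051 and 0.0095 between control and each knockdown. With the replicate number as a block, the median of the other members with *CHD4* siRNA was -0.11, and 1 member was lower between the knockdowns, where 14 members passed an adjusted p under 0.05 (25.7% of all genes). With a peak limit of 1 kb or 50 kb in place of 5 kb, 1 or 6 members had a TRPS1 peak, against 3.54% and 13.7% of tested genes. Of the values of single members, 1299 kept their direction and side of the threshold, 92 below the threshold changed sign, 37 passed it and 32 lost it. Direction reversed for no member past the threshold.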
